A study of Mus musculus with 58 samples.

Results

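The genes described here are a list of 40 oocyte-specific and maternal-effect genes of the mouse, taken by symbol from the count table, and 39 of its 24077 genes matched the list. H1foo, an oocyte linker histone, was not analysed here. The RNA-seq libraries are of 3 kinds: the fully grown oocyte (FGO), the morula, and the extraembryonic ectoderm (ExE), a trophoblast tissue of the early postimplantation embryo. The oocytes, labelled B6.129, were wild type controls (CTR, 2 libraries) or carried a double knockout of Pcgf1 and Pcgf6 (KO, 2 libraries). The mothers of the morulae and ExE were B6.129 and the fathers PWK, an inbred strain rich in sequence variants. They were wild type (CTR, 2 libraries each) or maternal double knockouts for the same genes (matKO, 2 morula and 4 ExE libraries). All these morula and ExE libraries have the same direction of cross. Maternal against paternal is therefore also B6.129 against PWK, and parent and strain cannot be told apart in the allele shares below. Pcgf1 and Pcgf6 encode subunits of variant Polycomb repressive complex 1, which ubiquitinates histone H2A. The Cre driver, the age of the mothers and the number of oocytes, embryos or animals behind each library are not given in the labels used here. Each p-value therefore measures the spread between these libraries, which may be technical.

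A growing oocyte transcribes a large store of messenger RNA and then falls silent, so that fertilisation and the first divisions run on what it has stored. Zona pellucida genes build the coat of the egg, growth factor genes signal to the surrounding granulosa cells, and genes of the subcortical maternal complex encode a protein assembly under the egg membrane. Another set of genes keeps stored messages dormant or removes them after the egg matures. Maternal-effect genes are those whose product the embryo needs from its mother, and most of the stored RNA is cleared by the time the embryo transcribes its own genome.

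Totals were 19805264 to 26364085 counts per FGO library, 1299715 to 1685510 per morula library and 3397585 to 4361832 per ExE library. The FGO values count whole genes, whereas morula and ExE values count only reads assigned to the mother or the father, so oocyte and embryo levels are set side by side with no test. Levels are given as CPM, the counts per 1000000 counts of the library. Gene lengths were not used here, so levels are compared between libraries and not between genes. In FGO the Pcgf1 level was 1406 and 1100 CPM in CTR and 34.9 and 22.8 CPM in KO (log2 change −5.56, SE 0.24, adjusted p = 2.0e-05). Pcgf6 had 396 and 429 CPM in CTR and 177 and 220 CPM in KO (log2 change −1.14, SE 0.19, adjusted p = 0.0102). In embryos the total of Pcgf6 did not pass the test between matKO and CTR morulae (log2 change −0.04, SE 0.14, adjusted p = 0.915), and its maternal reads remained in every matKO library. Its maternal share was 60% in morula CTR and 43.8% in matKO (shift −0.92 on the log2 scale, SE 0.18, adjusted p = 0.236), and 62% in ExE CTR and 36.3% in matKO (shift −1.26, SE 0.14, adjusted p = 1.1e-05). Pcgf1 had too few embryo reads for a check of the labels, with 1 paternal read in morula CTR, 8 maternal reads in morula matKO and 1 maternal read in ExE matKO. The mother's share of all allele-assigned counts was 50.6 to 52.6% in every morula and ExE library except ExE matKO replicate 3, where it was 35.8%.

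Windows near the starts of 5 members on which the results below turn are shown with their matches to 2 motifs of oocyte transcription factors. Basic helix-loop-helix factors of the oocyte, among them FIGLA, SOHLH1 and SOHLH2, bind the E-box CANNTG, which is its own reverse complement. The homeobox factor NOBOX binds TAATTG, read as CAATTA on the other strand. The windows are of 250 bases, 5′ to 3′ on the gene's strand, from RefSeq on GRCm38.p6, with all matches in capitals. Those of Zp3, Tcl1 and Padi6 end at the base before the gene's listed start. The Zar1l window reaches past the gene's listed start, 150518194 on this strand, into the gene. The Pabpc1l window lies wholly inside the gene, which is listed from 164024770 to 164050538.
Zp3, chr5:135979855-135980104, plus strand: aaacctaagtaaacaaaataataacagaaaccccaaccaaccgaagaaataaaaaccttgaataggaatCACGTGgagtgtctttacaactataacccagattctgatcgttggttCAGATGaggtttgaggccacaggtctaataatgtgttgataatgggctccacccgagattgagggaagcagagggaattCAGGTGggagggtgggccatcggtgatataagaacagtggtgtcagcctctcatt
Tcl1, chr12:105222738-105222987, minus strand: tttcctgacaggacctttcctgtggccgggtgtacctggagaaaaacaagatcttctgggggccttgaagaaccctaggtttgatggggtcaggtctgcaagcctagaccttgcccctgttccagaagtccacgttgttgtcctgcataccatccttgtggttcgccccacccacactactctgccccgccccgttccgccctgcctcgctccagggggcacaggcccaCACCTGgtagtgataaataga
Padi6, chr4:140742644-140742893, minus strand: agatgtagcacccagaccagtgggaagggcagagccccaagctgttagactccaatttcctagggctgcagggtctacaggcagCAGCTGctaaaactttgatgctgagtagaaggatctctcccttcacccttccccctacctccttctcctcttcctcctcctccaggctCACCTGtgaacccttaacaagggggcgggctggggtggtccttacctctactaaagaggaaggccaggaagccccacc
Zar1l, chr5:150518160-150518409, minus strand: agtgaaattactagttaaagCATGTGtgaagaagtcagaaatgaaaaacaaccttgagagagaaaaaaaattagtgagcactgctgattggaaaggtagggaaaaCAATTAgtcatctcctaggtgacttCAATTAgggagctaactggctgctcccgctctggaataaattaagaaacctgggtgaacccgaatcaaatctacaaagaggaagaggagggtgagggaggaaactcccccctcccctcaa
Pabpc1l, chr2:164024974-164025223, plus strand: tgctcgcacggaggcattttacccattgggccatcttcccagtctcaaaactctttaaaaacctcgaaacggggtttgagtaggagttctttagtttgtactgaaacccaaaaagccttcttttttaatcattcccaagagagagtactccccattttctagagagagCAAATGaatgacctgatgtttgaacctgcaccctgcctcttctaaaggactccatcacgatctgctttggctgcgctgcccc
An E-box match was found 3 times in the window of Zp3, 2 times in that of Padi6 and 1 time each in those of Tcl1, Zar1l and Pabpc1l. Zar1l alone among these 5 had TAATTG matches, 2 of them. Of the 39 members, 31 had entries, with 41 windows in all. An E-box match stood in 32 of these 41 windows (78%) and in 66.2% of all 32851 windows of that length. TAATTG stood in 4 of the 41 (9.76%), against 7.17% of all windows.

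Oocyte and maternal-effect genes were abundant in the oocytes. Their summed counts were 6.51% and 6.54% of all counts in the FGO CTR libraries and 5.83% and 6.84% in KO. In CTR oocytes 21 of the 39 had a mean of at least 1000 CPM, a level reached by 117 genes in all, and 34 had at least 100 CPM, as did 2105 genes. The 8 oocyte markers used as a check (Zp1, Zp2, Zp3, Gdf9, Bmp15, Nlrp5, Ooep and Oosp1) summed to 20928 and 20457 CPM in CTR and to 15171 and 20163 CPM in KO. All 8 are members of the list, so they are no separate check of it. The 20 markers of granulosa and cumulus cells, which surround the oocyte in the follicle, summed to 106 and 107 CPM in CTR and to 189 and 103 CPM in KO, and Ptx3, Tnfaip6 and Krt19 were at 0 in all 4 libraries. KO replicate 1 thus had the lowest sum of oocyte markers and the highest sum of granulosa markers of the 4 libraries. Much of that granulosa sum was Nr5a2, with 33.8 and 27.5 CPM in CTR and 116 and 37.7 CPM in KO. Cyp19a1 went the other way, with 46.6 and 55.8 CPM in CTR and 36.8 and 40.3 CPM in KO. In bulk samples fewer cells of a type and less RNA per cell cannot be told apart.

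**Figure D1:**
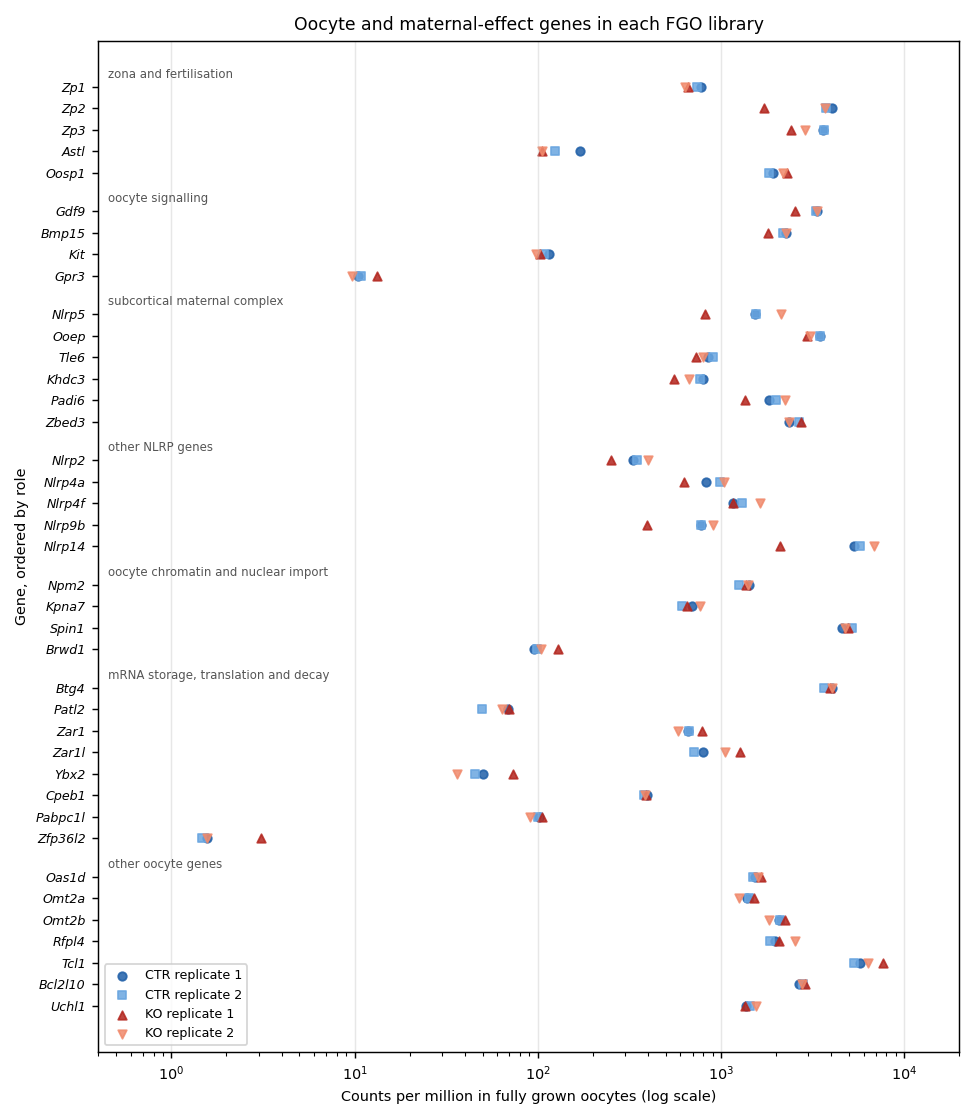
CPM (log axis) of each of the 39 genes in the 2 CTR and 2 KO oocyte libraries, grouped by role, each symbol being 1 library. The CTR symbols lie within 1.5-fold of each other for every gene, while KO replicate 1 stands to the left of the other libraries for Zp2, Nlrp5, Nlrp9b and Nlrp14.

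KO and CTR oocytes were compared across all genes with edgeR's quasi-likelihood test, calling genes at a Benjamini-Hochberg adjusted p under 0.05. None of the 39 members was called and 4 had an unadjusted p under 0.05 in edgeR, as did 2897 of all 13459 genes. DESeq2's Wald test called 1 member (Zar1l) and 1238 of those 13459 genes. In edgeR's test 7.22% of 13459 genes were called, 5.35% higher and 1.87% lower in KO. The members' log2 changes ran from −0.58 to 0.51 with a median of −0.11, against 0.00 for all genes tested, and 28 of the 39 were negative. The median standard error over the members was 0.19. With total counts in place of TMM scaling (trimmed mean of M-values) the median over all genes was 0.11, and 81.6% of calls in place of 74.1% were higher in KO. CPM values use total counts and carry that shift. The CPM values of KO and CTR libraries did not overlap for 15 members, against 50.2% of all genes tested.

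The 5 zona and fertilisation genes had a median log2 change of −0.54, and 4 of them were negative. Zp3, a structural glycoprotein of the zona, had 3595 and 3629 CPM in CTR and 2399 and 2862 CPM in KO (log2 change −0.54, SE 0.20, adjusted p = 0.167). Zp2, another of the zona glycoproteins, had 4011 and 3760 CPM in CTR and 1708 and 3708 CPM in KO (log2 change −0.58, SE 0.41, adjusted p = 0.489). Both KO libraries were below both CTR libraries for these 2 genes, and for Zp2 replicate 2 of the KO was nearly at the CTR level. Astl encodes ovastacin, the egg protease that cuts ZP2 after fertilisation. It had 169 and 124 CPM in CTR and 106 and 105 CPM in KO (log2 change −0.57, SE 0.18, adjusted p = 0.0961). Zp1 had 774 and 737 CPM in CTR and 657 and 633 CPM in KO. Oosp1, an oocyte-secreted protein gene, went the other way, with 1922 and 1818 CPM in CTR and 2289 and 2173 CPM in KO. In all 5 zona and fertilisation genes the groups did not overlap, and in none did the difference pass the test as fitted here. Groups without overlap in CPM were common, at 50.2% of all 13459 genes tested, and were found in 15 members of the whole list. Astl passed the test with no filter on low counts (adjusted p = 0.0149 in edgeR).

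The 4 signalling genes had log2 changes between −0.26 and 0.00, and none was called. Gdf9 and Bmp15 encode the growth factors through which the oocyte directs its granulosa cells. Gdf9 had 3362 and 3294 CPM in CTR and 2532 and 3349 CPM in KO, and Bmp15 had 2256 and 2184 CPM in CTR and 1799 and 2259 CPM in KO. For both growth factor genes replicate 2 of the KO lay within or next to the CTR values and replicate 1 lay below them. Kit, the receptor for the granulosa cells' Kit ligand, had 115 and 108 CPM in CTR and 103 and 97.5 CPM in KO. Gpr3, the receptor that keeps the oocyte in meiotic arrest, had 10.4 and 10.9 CPM in CTR and 13.3 and 9.69 CPM in KO.

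All 6 genes of the subcortical maternal complex and its partners were negative, with log2 changes from −0.44 to −0.08 and a median of −0.23, and none was called. Khdc3 (FILIA) had 800 and 766 CPM in CTR and 556 and 672 CPM in KO (log2 change −0.44, SE 0.19, adjusted p = 0.224). Ooep (FLOPED) had 3481 and 3473 CPM in CTR and 2965 and 3062 CPM in KO. Tle6, another core gene of the complex, had 852 and 910 CPM in CTR and 735 and 801 CPM in KO. These 3 genes were lower in both KO libraries than in either CTR library. Nlrp5 (MATER), a core gene of the complex, had 1526 and 1562 CPM in CTR and 822 and 2117 CPM in KO (log2 change −0.12, SE 0.53, adjusted p = 0.932). Padi6, needed for the cytoplasmic lattices of the egg, had 1826 and 1994 CPM in CTR and 1347 and 2231 CPM in KO. In Nlrp5 and Padi6 the 2 KO libraries lay on either side of the CTR values. Zbed3, a partner of the complex, had 2354 and 2655 CPM in CTR and 2741 and 2338 CPM in KO.

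The other NLRP genes, relatives of Nlrp5 expressed in the oocyte, showed the same division of the KO libraries. Nlrp14 had 5320 and 5745 CPM in CTR and 2106 and 6866 CPM in KO (log2 change −0.34, SE 0.67, adjusted p = 0.832). Nlrp9b had 773 and 777 CPM in CTR and 393 and 901 CPM in KO. Nlrp2 had 329 and 348 CPM in CTR and 251 and 402 CPM in KO. In each of these genes replicate 1 of the KO was the lowest and replicate 2 the highest of the 4 libraries, and the same held for Nlrp4a (631 and 1035 CPM in KO). Nlrp4f had 1163 and 1309 CPM in CTR and 1157 and 1628 CPM in KO. The median over these 5 genes was −0.19 and none was called. The NLRP family has close paralogs, and how reads that match several of them were counted is unstated in the labels, so their split is uncertain.

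**Figure D2:**
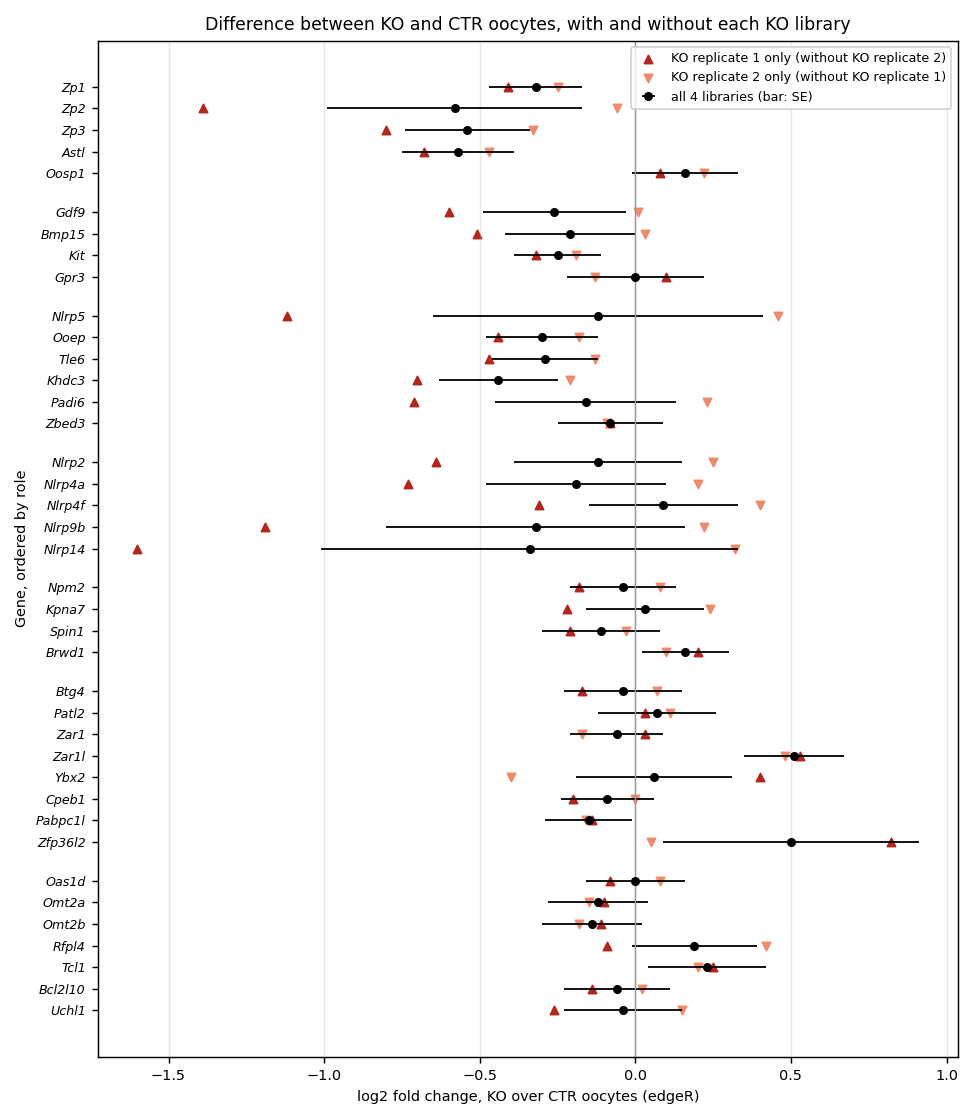
Log2 fold change of KO over CTR oocytes from edgeR for each gene, with all 4 libraries (black, bar: SE) and with only 1 KO library (triangles). The black points lie between −0.58 and 0.51, and the triangles stand furthest apart for Nlrp14 (−1.60 and 0.32) and Nlrp5 (−1.12 and 0.46).

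The KO libraries differed from each other over the members more than the CTR libraries did. Between the 2 KO libraries 9 of 39 members (23.1%) differed by more than 1.5-fold, and between the 2 CTR libraries 0 of 39 did. Over the 2105 genes with at least 100 CPM in FGO CTR the shares were 7.89% and 1.28%, and over all 13459 genes tested they were 28.3% and 16.4%. Replicate 2 was the higher in 7 of the 9 (Zp2, Nlrp5, Padi6, Nlrp2, Nlrp4a, Nlrp9b and Nlrp14) and the lower in Ybx2 and Zfp36l2. Of those 7 genes, 6 are on chromosome 7, which holds 8 members. On chromosome 7 KO replicate 2 exceeded KO replicate 1 by more than 1.5-fold in 15 of 126 genes of at least 100 CPM (11.9%). The share was 4.69% over all chromosomes and 17.2% on the X chromosome. Those 15 genes include the 6 members, so the share on chromosome 7 is not separate from them. The part of the KO libraries' difference in these results was not tested. Nor was that of the higher granulosa marker sum in KO replicate 1 (189 against 103 CPM, of which Nr5a2 made 116 and 37.7 CPM).

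The log2 changes of the members depended on which KO library was kept. Without KO replicate 2 they ran from −1.60 (Nlrp14) to 0.82 (Zfp36l2). Without KO replicate 1 they ran from −0.47 (Astl) to 0.48 (Zar1l). In these 2 fits, in that order, Zp3 (−0.80 and −0.33) and Zar1l (0.53 and 0.48) kept their signs. Nlrp5 and Nlrp14 changed sign between these fits, from −1.12 to 0.46 and from −1.60 to 0.32. Other members did so too, among them Nlrp9b (−1.19 to 0.22), Nlrp4a (−0.73 to 0.20) and Padi6 (−0.71 to 0.23). In each such fit the lone KO library was assumed to vary like the CTR libraries.

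The 4 genes of oocyte chromatin and nuclear import had log2 changes from −0.11 to 0.16. Npm2 (nucleoplasmin), a histone chaperone that opens sperm chromatin, had 1418 and 1251 CPM in CTR and 1365 and 1407 CPM in KO. Spin1 (spindlin), a reader of methylated histone H3, had 4584 and 5216 CPM in CTR and 4906 and 4779 CPM in KO. Kpna7, an importin of the oocyte, had 699 and 616 CPM in CTR and 651 and 772 CPM in KO. For these 3 genes the KO values lay among or beside the CTR values. Brwd1, a bromodomain protein gene, had 95.6 and 99.1 CPM in CTR and 129 and 104 CPM in KO.

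Among the 8 genes of mRNA storage, translation and decay the median log2 change was 0.01. Zar1l, a zygote arrest protein that binds stored messages, had 802 and 714 CPM in CTR and 1265 and 1051 CPM in KO (log2 change 0.51, SE 0.16, adjusted p = 0.095). It was higher in 2 of 2 KO libraries and was called by DESeq2's Wald test and with total counts, but not by edgeR with TMM. Its paralog Zar1 had 663 and 665 CPM in CTR and 784 and 586 CPM in KO. Btg4, the adaptor that recruits the CCR4-NOT deadenylase to maternal messages, had 4025 and 3663 CPM in CTR and 3952 and 4015 CPM in KO. Cpeb1, which controls cytoplasmic polyadenylation, had 397 and 378 CPM in CTR and 391 and 386 CPM in KO. Pabpc1l, the poly(A)-binding protein of the oocyte, had 102 and 100 CPM in CTR and 106 and 90.3 CPM in KO. These 4 genes had no separation between the groups. Patl2, an RNA-binding protein gene, had 69.1 and 49.4 CPM in CTR and 69.7 and 63.8 CPM in KO. Ybx2 (MSY2), which packages stored mRNA, had 50.5 and 45.6 CPM in CTR and 73.2 and 36.4 CPM in KO. Zfp36l2, which promotes decay of messages with AU-rich elements, had 1.56 and 1.48 CPM in CTR and 3.09 and 1.57 CPM in KO.

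The remaining 7 oocyte genes had a median log2 change of −0.04, with a range of −0.14 to 0.23. Tcl1, a coactivator of the kinase AKT, had 5762 and 5318 CPM in CTR and 7641 and 6325 CPM in KO. Rfpl4, a RING finger protein gene, had 1960 and 1841 CPM in CTR and 2062 and 2535 CPM in KO. Oas1d, of the oligoadenylate synthetase family, had 1542 and 1495 CPM in CTR and 1659 and 1597 CPM in KO. In CPM the KO libraries were above the CTR libraries for these 3 genes, and none was called. The fitted log2 changes with TMM were 0.23 for Tcl1, 0.19 for Rfpl4 and 0.00 for Oas1d (SE 0.19, 0.20 and 0.16). Bcl2l10, of the BCL2 family, had 2674 and 2812 CPM in CTR and 2873 and 2768 CPM in KO. Uchl1, a deubiquitinating enzyme, had 1368 and 1440 CPM in CTR and 1352 and 1551 CPM in KO. Omt2a and Omt2b, a pair of near-identical oocyte genes whose split of reads is uncertain, had 1254 to 1506 CPM and 1838 to 2240 CPM over the 4 libraries, with overlapping groups.

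Related genes outside the list are counted here beside the 5.35% of all 13459 genes called higher and the 1.87% called lower. Of the 6 other genes listed under zona and egg surface and tested, 1 was lower, Zp3r. It is named for a receptor of ZP3 and is not itself a gene of the egg coat. Zp3r had 5.69 and 7.15 CPM in CTR and 2.41 and 2.98 CPM in KO (log2 change −1.34, SE 0.32, adjusted p = 0.0408 in edgeR). Of 10 other NLRP and KHDC genes tested, 1 was lower, Nlrp4e (108 and 120 CPM in CTR, 19.9 and 30.3 CPM in KO; log2 change −2.26, SE 0.26, adjusted p = 0.00348). Of 31 other maternal-effect genes 1 was lower, Tcl1b5, a relative of Tcl1 (log2 change −1.50, SE 0.20, adjusted p = 0.00395), and none was higher. Nlrp4e and Tcl1b5 kept their calls without each library in turn, whereas Zp3r lost its call with total counts (adjusted p = 0.0659 in edgeR), without CTR replicate 2 (0.196) and without KO replicate 1 (0.116). Nlrp4e and Tcl1b5 were called while the members closest to them by name, Nlrp4a, Nlrp4f and Tcl1, were not. The difference between those log2 changes was not tested. Of 37 other mRNA storage and decay genes 2 were higher. Pabpn1l, a poly(A)-binding protein of the oocyte, rose from 356 and 353 to 700 and 559 CPM (log2 change 0.72, SE 0.15, adjusted p = 0.0209), a call lost without CTR replicate 1 (adjusted p = 0.25 in edgeR) or CTR replicate 2 (0.225). Zfp36, a relative of Zfp36l2, rose from 1.25 and 0.972 to 5.41 and 2.73 CPM (log2 change 1.74, SE 0.41, adjusted p = 0.0389), a call lost without CTR replicate 2 (adjusted p = 0.126 in edgeR) or KO replicate 1 (0.151).

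Of the 8 oocyte transcription factors that drive this program 2 were called, both higher in KO, where 5.35% of all genes were called higher. Sohlh2 rose from 3.19 and 3.38 to 48.6 and 43.6 CPM (log2 change 3.71, SE 0.20, adjusted p = 8.8e-05). Sohlh1 had 0 and 1 count in CTR and 124 and 64 counts in KO (adjusted p = 0.00122). Both act in the early follicle, before the oocyte is fully grown. Nobox (493 and 427 CPM in CTR, 523 and 415 CPM in KO), Figla (88.5 and 72.8, 68.3 and 71.1 CPM) and Lhx8 (143 and 131, 182 and 143 CPM) were not called. Among 12 tested granulosa markers 1 was called, against 7.22% of all genes. It was Nr2f2, higher in KO, from 1.1 and 0.661 to 4.23 and 2.42 CPM (log2 change 1.79, SE 0.44, adjusted p = 0.0444). The call was lost with total counts (adjusted p = 0.0523 in edgeR), without CTR replicate 2 (0.196) and without KO replicate 1 (0.153). Its part in the oocyte results was not tested.

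In embryos the members held little of the counts assigned to a parent. Their share of allele-assigned counts was 0.0555% and 0.0563% in morula CTR, 0.0682% and 0.0591% in morula matKO, and 0.017 to 0.0203% in the 6 ExE libraries. Over the 4 morula libraries 20 of the 39 members had at least 10 reads, 12 had fewer and 7 had none. Over the 6 ExE libraries 13 had at least 10 reads, 7 had fewer and 19 had none.

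The 7 members with no read in morulae had no read in any of the 10 embryo libraries. They are Ooep, Khdc3, Omt2a, Omt2b, Bcl2l10 and Btg4, which are all 6 members on chromosome 9, and Nlrp2 on chromosome 7. Genes around them were listed at 0 as well. Of the 2105 genes with at least 100 CPM in FGO CTR, 203 (9.64%) had no embryo read, and on chromosome 9 the share was 45 of 135 (33.3%). Among such genes within 5 Mb the share without a read was 12 of 12 around Khdc3, 15 of 17 around Bcl2l10, 12 of 15 around Ooep, Omt2a and Omt2b, 4 of 13 around Btg4 and 1 of 6 around Nlrp2. Those at 0 on chromosome 9 include genes that every cell uses, such as Rpl4 (351 CPM in FGO CTR), a ribosomal protein gene, and Pkm (153 CPM), the glycolytic pyruvate kinase. By contrast Actb had 51646 embryo reads and Hprt 18291. These 7 members are therefore only listed at 0 in embryos, and whether their RNA was present cannot be told from the table. Zp2 lies in a similar stretch, where 5 of 6 neighbouring genes had no read, but had reads itself.

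**Figure D3:**
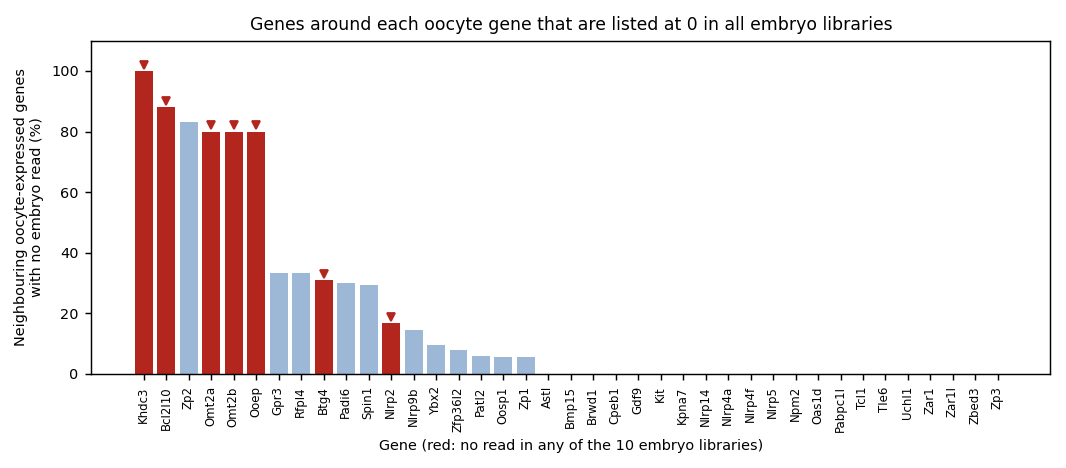
For each gene, the percentage of neighbouring genes (within 5 Mb, at least 100 CPM in FGO CTR) that have no read in any of the 10 morula and ExE libraries. Red bars with a triangle mark the 7 genes that themselves have no embryo read. 5 of these stand at 80 to 100%, and Btg4 and Nlrp2 stand at 30.8% and 16.7%.

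Several oocyte genes were read in morulae mostly or wholly from the maternal allele. Of the 20 members with at least 10 reads over the 4 morula libraries, 5 (25%) had at least 90% maternal reads. Such a share was found in 4.07% of all 11314 genes with at least 10 reads. It was found in 2.6% of the 1734 of them with at least 100 CPM in CTR oocytes. These backgrounds have no upper limit on reads, whereas the 5 members had 12 to 28 reads, so the depths are not matched. The limits of 10 reads and 90% were chosen after the values were seen. Zp2 had 7 and 10 maternal reads in CTR and 8 and 3 in matKO, and 0 paternal reads (28 of 28, 95% exact Clopper-Pearson interval 87.7 to 100), and Nlrp14 had 8 and 10 maternal reads in CTR and 3 and 4 in matKO, and 0 paternal reads (25 of 25, 86.3 to 100). Over CTR and matKO together Nlrp5 had 18 maternal and 2 paternal reads, Gdf9 13 and 1, and Oosp1 11 and 1. In CTR alone Gdf9 and Oosp1 each had 2 maternal and 1 paternal read (66.7%, interval 9.43 to 99.2). In matKO Gdf9 had 11 maternal and Oosp1 9 maternal reads, with 0 paternal reads. Nlrp5 had 9 and 0 in CTR and 9 and 2 in matKO. These 5 genes had at most 10 reads in any morula library. Stored oocyte RNA and transcription from the maternal allele cannot be told apart in these counts. Intervals cover counting error only, since reads are not independent molecules.

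The test of the maternal against the paternal allele in morula CTR used genes with a mean of at least 20 reads per library, and 7 members entered it. In this test 25.2% of 7637 genes were called, 14.8% towards the maternal and 10.4% towards the paternal allele. Of the 7 members 3 were called, Tcl1 and Npm2 towards the maternal and Zp3 towards the paternal allele. Tcl1 had 25 maternal and 6 paternal reads in CTR replicate 1 and 62 and 10 in replicate 2 (84.5% maternal over both, interval 76 to 90.9). Its log2 ratio of maternal over paternal was 2.30 (SE 0.45, adjusted p = 0.0125). Npm2 had 21 and 3 reads in replicate 1 and 17 and 3 in replicate 2 (86.4%, interval 72.6 to 94.8; log2 ratio 2.53, SE 0.57, adjusted p = 0.0212). In 2 of 2 CTR libraries and 2 of 2 matKO libraries both genes had more maternal than paternal reads. The calls of Tcl1 and Npm2 were lost without either CTR library, at log2 ratios of 1.95 to 2.53 and 2.37 to 2.67.

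Zp3 was read mainly from the paternal allele, which is also the PWK allele. Morula CTR replicates had 4 maternal against 74 paternal reads and 13 against 72, and the matKO replicates 24 against 72 and 11 against 68. The maternal share was 10.4% in CTR (interval 6.19 to 16.2) and 20% in matKO (14.3 to 26.7). All 4 libraries had more paternal than maternal reads of Zp3. Its log2 ratio in CTR was −3.19 (SE 0.45, adjusted p = 0.00394), and it stayed called without CTR replicate 1 (−2.54) or replicate 2 (−4.24). Zp3 thus had 3595 and 3629 CPM in CTR oocytes, where its RNA is the mother's, and 46.3 and 53.5 CPM in CTR morulae, where most allele-assigned reads were the father's. Zp2 by contrast had no paternal read in morulae, but it lies where 5 of 6 neighbouring oocyte-expressed genes had no embryo read.

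Padi6, Uchl1, Spin1 and Brwd1 had reads of both alleles in every morula library. Padi6 had 64 maternal and 33 paternal reads in CTR replicate 1 and 72 and 50 in replicate 2 (62.1% maternal, interval 55.3 to 68.6; log2 ratio 0.64, SE 0.33, adjusted p = 0.216). The other log2 ratios were −0.16 for Uchl1, 0.14 for Brwd1 and −0.12 for Spin1, none of them called. Spin1 had 346 maternal and 362 paternal reads over the 4 libraries, and Brwd1 had 596 and 550. Kpna7, below the depth of the test, had 16 maternal and 20 paternal reads. The other members with at least 10 reads (Tle6, Zbed3, Nlrp4f, Nlrp9b, Cpeb1, Pabpc1l and Zfp36l2) had maternal shares of 62.5 to 81.8% over 11 to 48 reads, below the depth of the test.

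**Figure D4:**
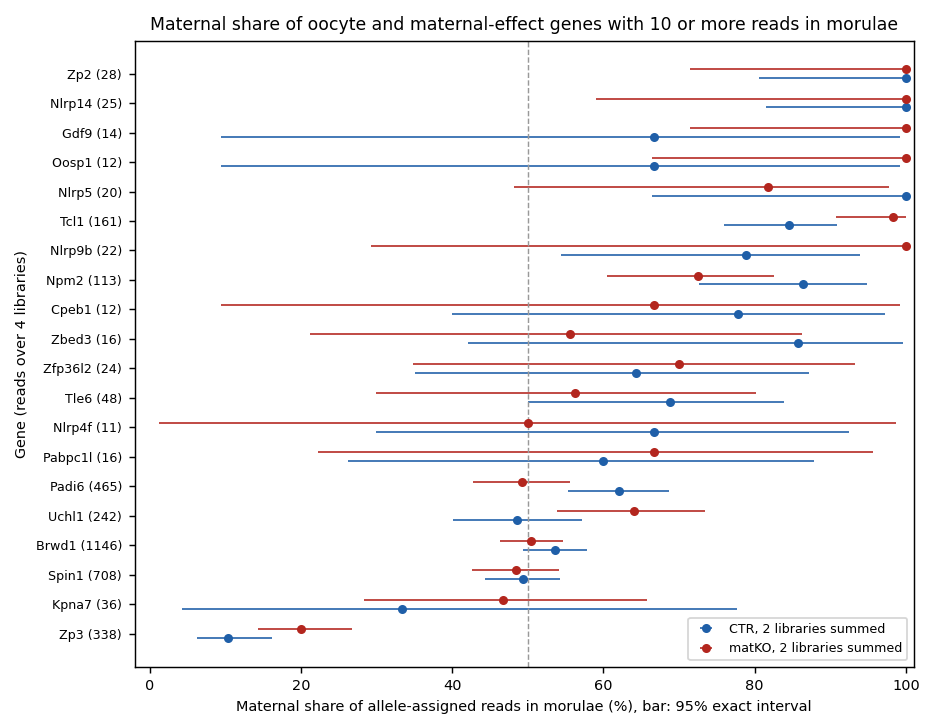
Maternal share (%) of the allele-assigned reads of each gene with at least 10 reads over the 4 morula libraries, for CTR and matKO (2 libraries summed each), with 95% exact intervals. The number of reads stands after each name and the dashed line marks equal alleles. Zp2 and Nlrp14 lie at 100% in both groups, and Zp3 lies at 10.4% and 20%.

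The maternal share did not pass a test of difference between matKO and CTR morulae for any of these 7 members, where 0.0393% of 7637 genes were called. Tcl1 had 34 maternal and 1 paternal read in matKO replicate 1 and 23 and 0 in replicate 2 (98.3% maternal, interval 90.8 to 100, against 84.5% in CTR). Its shift was 3.22 on the log2 scale (SE 1.02, unadjusted p = 0.0178, adjusted p = 0.474 in edgeR). Npm2 shifted by −1.27, Padi6 by −0.81, Uchl1 by 0.87 and Zp3 by 1.12, where positive values are towards the maternal allele. Of these 7, Tcl1 alone had an unadjusted p under 0.05 in edgeR, as did 626 of all 7637 genes.

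Total expression in morulae was compared between matKO and CTR for the 9 members that passed the filter on low counts, and none was called. In this test edgeR called 0.132% of 9063 genes, so few calls were made anywhere. An unadjusted p under 0.05 in edgeR was found for 2 of the 9 members and for 1791 of all 9063 genes. DESeq2's Wald test called 208 genes and none of the 7 members to which it gave an adjusted p. Kpna7 and Tle6 had none. Kpna7 had 4 and 2 reads in CTR and 11 and 19 in matKO, or 2.37 and 1.26 against 8.46 and 14.1 CPM (log2 change 2.61, SE 0.72, adjusted p = 0.134). Brwd1 had 195 and 147 CPM in CTR and 232 and 209 CPM in matKO (log2 change 0.40, SE 0.16, adjusted p = 0.235). Both matKO libraries were above both CTR libraries for Kpna7 and Brwd1, but the share of all morula genes apart in this way was not counted. Npm2 had 14.2 and 12.6 CPM in CTR and 38.5 and 14.1 CPM in matKO (log2 change 1.00, SE 0.54), a difference that lay mostly in matKO replicate 1. Padi6 (57.5 and 76.9 CPM in CTR, 114 and 72.7 CPM in matKO) and Tcl1 (18.4 and 45.4, 26.9 and 17.1 CPM) had overlapping groups. Zp3 had 46.3 and 53.5 CPM in CTR and 73.9 and 58.6 CPM in matKO (log2 change 0.45, SE 0.25, adjusted p = 0.361). Spin1, Uchl1 and Tle6 had log2 changes of −0.07, −0.17 and −0.64. The median over the 9 was 0.40, against −0.02 for all genes.

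Between morulae and ExE most of the tested members fell in the controls, and 3 rose. Of 13 members tested 11 were called, 3 higher and 8 lower in ExE CTR than in morula CTR, in a comparison that called 67.5% of 9977 genes (27.8% higher and 39.7% lower). Genes pass the filter on low counts when they are high enough in either stage, so a member read in morulae alone had to differ, and these counts are a description. With total counts in place of TMM the median over all genes moved from −0.28 to −0.95 and the share of calls that were higher from 41.2% to 22.2%. Padi6 had 219 reads in the 2 morula CTR libraries and 0 in ExE CTR, at least 191-fold lower against a floor of 3 counts over the ExE CTR libraries. On the same floor Npm2 was at least 38.5-fold lower and Zp2 at least 14.9-fold lower. Tcl1 had 103 reads against 1 (a 270-fold ratio in CPM, exact 95% counting interval 47.4 to 10768). Uchl1 had 142 against 3 (124-fold, 41.6 to 609), and Nlrp14 18 against 1 (47.2-fold, 7.45 to 1966). Zp3 fell from 46.3 and 53.5 to 0.711 and 1.15 CPM (log2 change −5.02, SE 0.48, adjusted p = 2.2e-06). Brwd1 was lower by 0.60 on the log2 scale (SE 0.21, adjusted p = 0.0228), beside a median of −0.28 over all genes. Spin1 (−0.24) and Zfp36l2 (0.79) were not called, but with total counts Spin1 was called lower (−0.92, adjusted p = 0.00209 in edgeR). The fitted median over the 13 members was −4.52, or −3.89 with the 6 genes of 0 to 3 ExE reads set at these bounds and ratios.

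Tle6, Zbed3 and Pabpc1l were higher in ExE. Tle6, also a corepressor of the Groucho family, had 9.49 and 10.1 CPM in morula CTR and 21.6 and 21.6 CPM in ExE CTR (log2 change 1.80, SE 0.38, adjusted p = 0.00121). Zbed3 had 1.78 and 2.52 CPM in morulae and 6.16 and 4.59 CPM in ExE (log2 change 1.96, SE 0.65, adjusted p = 0.0183). Pabpc1l had 1.78 and 4.41 CPM in morulae and 14 and 5.5 CPM in ExE (log2 change 2.30, SE 0.68, adjusted p = 0.00968). In all 3 genes both ExE libraries were above both morula libraries. How many of all genes were apart in this way was not counted. With total counts Zbed3 and Pabpc1l were no longer called and Tle6 stayed called. Zbed3 also lost its call in DESeq2's Wald test. Leaving out each of the 4 libraries in turn, Tle6 kept its call each time. Pabpc1l lost its call without morula CTR replicate 1 (log2 change 1.72), and Zbed3 without ExE CTR replicate 2 (2.13) or either morula CTR library (1.67 and 2.22). Neither gene passed the filter on low counts without ExE CTR replicate 1. Among the genes lower in ExE, Brwd1 lost its call without ExE CTR replicate 2 (−0.50) or morula CTR replicate 1 (−0.46), and Nlrp14 without ExE CTR replicate 2 (−3.69). Nlrp14 and Zp2 did not pass the filter without either morula CTR library.

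Parental reads differed among these ExE genes. In a test added after the columns were seen, 31.5% of 6857 genes in ExE CTR were called for a difference between the alleles, 17.2% towards the maternal allele. Pabpc1l had 53 maternal and 6 paternal reads in CTR replicate 1 and 21 and 3 in replicate 2 (89.2% maternal, interval 80.4 to 94.9). Its log2 ratio was 2.91 (SE 0.55, adjusted p = 8.7e-05). Zbed3 had 22 and 4 reads in replicate 1 and 17 and 3 in replicate 2 (84.8%, interval 71.1 to 93.7; log2 ratio 2.35, SE 0.73, adjusted p = 0.0147). Both genes were mainly maternal in 2 of 2 CTR libraries. Zbed3 lost its call without either CTR library. Tle6 (log2 ratio 0.25), Brwd1 (0.19) and Spin1 (−0.11) were not called. The 11 markers of decidua and maternal blood summed to 0 and 0.474 CPM in ExE CTR, where all but Pgr were at 0. In ExE matKO they summed to between 0 and 18.6 CPM. There 9 of the 11, among them Dcn and all 4 globin genes, were at 0, and the decidua markers Prl8a2 and Pgr had reads. The part of these markers in the maternal shares was not tested.

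The maternal share of these genes did not pass a test of difference between matKO and CTR ExE. Pabpc1l had 86.3, 58.8, 55.6 and 86.7% maternal reads in the 4 matKO libraries (shift −1.33 on the log2 scale, SE 0.68, adjusted p = 0.794). Zbed3 had 58.1, 54.8, 100 and 81.8% (shift −1.23, SE 0.90, adjusted p = 0.915). The 4 matKO libraries thus ranged widely for both genes. In this test 0.0729% of 6857 genes were called and none of the 5 members tested, also without matKO replicate 3, the library with a low maternal share of all counts.

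Total expression of the 6 members tested in ExE did not pass the test between matKO and CTR either. In this comparison edgeR called 0% of 8386 genes, of which 1161 had an unadjusted p under 0.05, and DESeq2's Wald test called 214. None of the 6 members had an unadjusted p under 0.05 in edgeR. Tle6 had 21.6 and 21.6 CPM in CTR and 16.1, 24.7, 18.4 and 26.5 CPM in matKO (log2 change −0.04, SE 0.26). Zbed3 had 6.16 and 4.59 CPM in CTR and 7.58, 7.74, 2.43 and 6.48 CPM in matKO (0.15, SE 0.46). Pabpc1l had 14 and 5.5 CPM in CTR and 17.8, 12.7, 7.29 and 8.83 CPM in matKO (0.25, SE 0.44). For all 3 genes the matKO and CTR values overlapped. Spin1 (0.01, SE 0.16) and Brwd1 (0.12, SE 0.16) had the narrowest errors of the 6, and Zfp36l2 had a log2 change of −0.61 (SE 0.53) at 1.75 to 6.16 CPM. Without matKO replicate 3 none of the 6 was called.

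**Figure D5:**
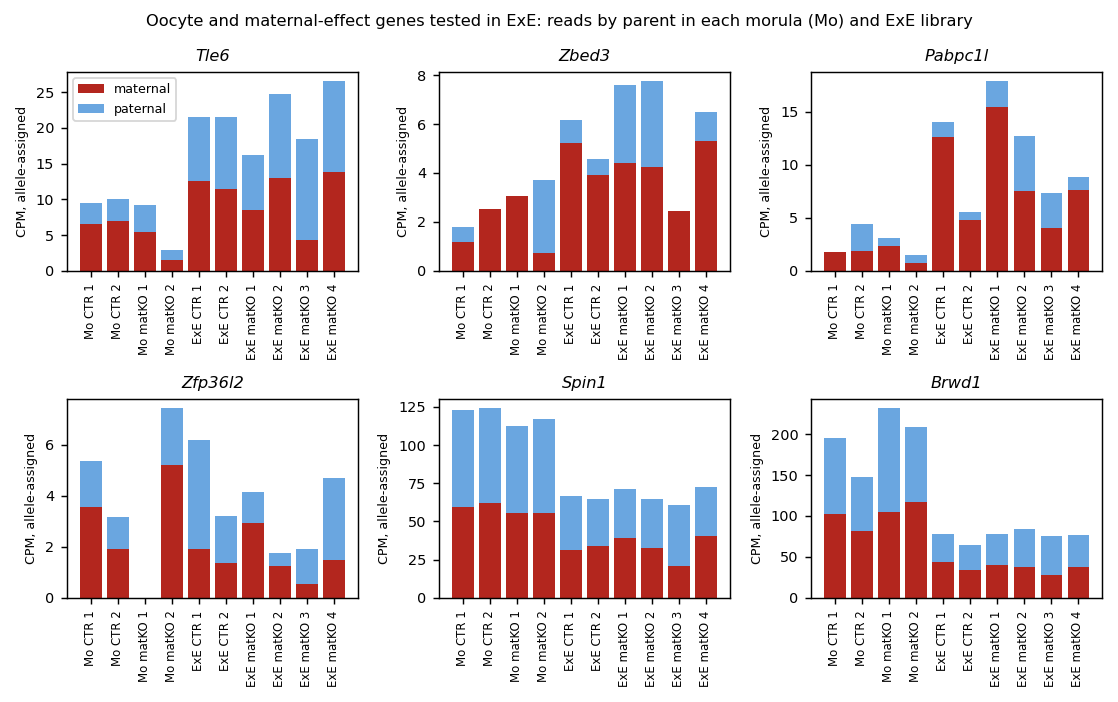
CPM of maternal (red) and paternal (blue) reads of the 6 genes tested in ExE, in each morula (Mo) and ExE library, stacked. Spin1 and Brwd1 have both alleles in every library, and Zbed3 and Pabpc1l are mostly maternal in ExE CTR (84.8% and 89.2%).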

How the data were processed

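Of the 58 samples 18 are RNA-seq samples. 14 RNA-seq libraries have columns in the table used here, and 4 reciprocal-cross morula samples and the chromatin samples were not analysed here. The values the authors deposited are whole-number, unscaled gene counts, with 1 column per FGO library, and a maternal and a paternal column per morula or ExE library, per the file headers. The submitters' processing notes name STAR 2.7.3, RSEM 1.3.1, Bowtie2 2.3.5 and Trim Galore 0.6.4 with build mm10. The counting tool and the way reads were split by parent were not given in the sources used here. The labels' protocols name SMART-Seq v4 and Nextera XT, which do not mark strand.

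Maternal and paternal counts were summed for tests of total expression. This departs from the planned whole-gene totals and leaves out reads that fit both parents. Tests were fitted across all genes with edgeR 4.0.16 (TMM, filterByExpr, robust quasi-likelihood F test, Benjamini-Hochberg adjusted p under 0.05) in R 4.3.3. DESeq2 1.42.0 was an alternative. The allelic fits had terms for library, allele and allele by genotype, with autosomal allele totals as offsets on genes averaging 20 reads or more per library, without X-linked genes in ExE. Symbols were matched to GRCm38.p6, 23975 by symbol and 82 by synonym, and 20 were unmatched. A floor of 3 counts over the ExE CTR libraries is 0.35 CPM. Tests of expression and of allelic shift were tested on simulated data.

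The members and lists were chosen with earlier results of these data known. All members are accounted for, and called genes of the related lists are named for FGO only. For the pairing of replicate numbers see the closing section.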

Additional observations from a re-analysis of the deposited data

Results flagged for a closer look

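In the group of 4 ExE matKO libraries, 14 sets of values were checked for a library far from the others, and chance gives about 1 such flag in 20 sets. The maternal share of all counts was 35.8% in replicate 3, against 52.5, 51.5 and 52.6% in the others. The maternal share of Tle6 was 23.5% in the same library, against 53, 52.5 and 52.2%. The oocyte and maternal-effect genes held 0.0171% of its counts, against 0.0203, 0.0201 and 0.0202%. All 3 flags fall on replicate 3, and the part of its low maternal share in the Tle6 value was not tested.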

How the results depend on the processing

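Counts of called genes moved with the settings. In FGO 972 genes were called, 1630 with no filter on low counts, 2021 with a replicate block and 767 to 2029 without each library. Astl was called in FGO with no filter (−0.58) and with the block (−0.56). In morulae 12 genes were called, 54 with DESeq2 size factors, 208 with DESeq2's Wald test, 489 with no filter, 310 with the block and 7 to 524 without each library. In ExE 0 were called, 214 with the Wald test, 112 with no filter, 923 with the block and 0 to 6 without each library. ExE against morula CTR gave 6735, 6533 with the block, where Zbed3 lost its call, and 5202 to 6355 without each library. No morula or ExE member was called between matKO and CTR in any of these settings, leaving out Kpna7 and Tle6 in morulae under the Wald test, which gave them no adjusted p. Same-numbered libraries deviated together at correlations of 0.01 to 0.25, and the labels name no shared litter, so the numbers were taken as numbers only. The allelic tests gave 1923 calls in morula CTR (804 to 1990 without each library) and 2162 in ExE CTR (787 with no allele offset, 1386 to 2201 without each library). For the allelic shift they were 3 in morulae (9 at a mean of 10 reads, 0 to 3 without each library) and 5 in ExE (4 to 14 without each library). The sign of the ExE shift of Spin1 turned with no allele offset (−0.05). Without each library the log2 values of some members changed sign. In FGO, without KO replicate 2 and without KO replicate 1, they were −1.12 and 0.46 for Nlrp5 and −1.60 and 0.32 for Nlrp14. Padi6 (−0.71 and 0.23), Nlrp9b (−1.19 and 0.22), Nlrp4a (−0.73 and 0.20), Nlrp2 (−0.64 and 0.25) and Nlrp4f (−0.31 and 0.40) turned likewise. So did Kpna7, Rfpl4, Ybx2, Gdf9, Bmp15, Gpr3, Npm2, Btg4, Zar1, Oas1d, Bcl2l10 and Uchl1. In morulae the sign turned for Tcl1 (−1.01 to 0.32) and Uchl1 (−0.64 to 0.19). In ExE it turned for Spin1 (−0.02 to 0.05), Tle6 (−0.14 to 0.09), Zbed3 (−0.01 to 0.41) and Pabpc1l (−0.24 to 1.01). It also turned for Uchl1 in the morula CTR alleles (−0.53 to 0.20) and Spin1 in the ExE CTR alleles (−0.25 to 0.03). In the morula shift it turned for Spin1 (−0.07 to 0.04) and Brwd1 (−0.47 to 0.19). The causes were not tested, except that a library left out leaves fewer samples. At 1299715 to 1685510 reads per morula library, 23 members with a read in some embryo library were too low for the test of total expression, beside the 7 listed at 0.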
